A study of Mus musculus with 6 samples.

Results

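The genes described here are 10 regulators and keratins of the trophectoderm: the transcription factors Tead4, Cdx2, Eomes, Elf5, Gata3, Tfap2c and Hand1, and the keratins Krt7, Krt8 and Krt18. A gene was taken as measured where a probe set of the array carried its symbol and no other, and all 10 of 10 were found, among 19938 genes in all. Each of the 10 was read by exactly 1 probe set. They were measured in lines ♂M-1, ♂M-3 and ZM-1 of the mouse, named in the labels as chromosome transfer embryonic stem (ES) cells with no word on the prefixes. Each of the 3 lines had 2 biological repeats, giving 6 arrays. Every culture was grown on gelatin in DMEM with LIF, PD0325901 to block MEK and CHIR99021 to block GSK3β, and total RNA was hybridised to an Affymetrix whole-transcript array. Since ZM is represented by 1 line, what belongs to the line type and what belongs to the single line cannot be told apart. Nothing in the labels says that the repeats came from separately derived cells, so a p-value here reflects the spread of the repeats alone.

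The trophectoderm is the outer epithelium of the blastocyst and gives rise to the trophoblast of the placenta. In outer cells of the mouse embryo, low Hippo signalling lets YAP enter the nucleus and act with TEAD4, which turns on Cdx2 and Gata3; CDX2, EOMES, ELF5 and TFAP2C then maintain trophoblast stem cells, and HAND1 drives their differentiation to giant cells. The simple-epithelial keratins KRT8 and KRT7, of type II, form filaments only in pairs with a type I partner such as KRT18, and they are classical markers of trophectoderm. ES cells come from the inner cell mass and normally hold most of this programme low, although Tfap2c and Tead4 are also expressed in naive ES cells.

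The windows around the starts of the 3 keratin genes are shown because Krt18 differed between lines while its neighbour Krt8 and its relative Krt7 gave less clear differences, and because AP-2γ, the protein made from Tfap2c, binds a GC-rich motif. The sequences are those of RefSeq on GRCm38.p6, from 250 bases before to 50 bases after the gene's start, written 5′ to 3′ on the gene's strand. Capitals mark matches, on either strand, to the AP-2 letters GCCNNNGGC. They also mark the TEAD letters, which are GGAATG, and the letters read by GATA factors, which are AGATAA. The TATA box, searched as TATAAA, is in capitals too.
Krt18, chr15:102027966-102028265, plus strand: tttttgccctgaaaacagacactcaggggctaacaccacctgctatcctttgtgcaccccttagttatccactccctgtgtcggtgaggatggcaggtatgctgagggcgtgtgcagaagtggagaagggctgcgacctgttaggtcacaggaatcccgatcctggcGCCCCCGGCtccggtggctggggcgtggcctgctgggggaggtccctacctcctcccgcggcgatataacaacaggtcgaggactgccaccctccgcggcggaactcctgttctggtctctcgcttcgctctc
Krt8, chr15:102004293-102004592, minus strand: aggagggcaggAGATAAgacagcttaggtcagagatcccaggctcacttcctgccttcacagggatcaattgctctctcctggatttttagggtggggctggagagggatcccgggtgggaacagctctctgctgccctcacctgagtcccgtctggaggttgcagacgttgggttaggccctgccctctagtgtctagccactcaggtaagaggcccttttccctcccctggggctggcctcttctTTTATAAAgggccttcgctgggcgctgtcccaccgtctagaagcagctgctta
Krt7, chr15:101412153-101412452, plus strand: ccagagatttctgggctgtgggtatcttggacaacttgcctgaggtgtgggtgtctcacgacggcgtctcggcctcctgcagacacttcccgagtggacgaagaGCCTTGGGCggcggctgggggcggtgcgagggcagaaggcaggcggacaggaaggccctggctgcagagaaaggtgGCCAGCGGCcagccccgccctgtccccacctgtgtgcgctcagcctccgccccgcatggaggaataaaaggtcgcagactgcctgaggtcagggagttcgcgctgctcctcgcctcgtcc

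The AP-2 letters occurred once in the Krt18 window, with the match starting at position -83 from the gene's start. The Krt7 window held matches to them at positions -146 and -70, and the Krt8 window held the GATA letters at position -239 and overlapping TATA letters on both strands at positions -3 and -1. Among all 32841 windows of this length, 16.6% held the AP-2 letters, 14.7% the TEAD letters, 11.2% the GATA letters and 13.6% the TATA letters, so each of these matches is common. The TEAD letters, the octamer ATGCAAAT (1.74% of windows) and the CDX letters TTTATNG (10.9% of windows) were not found in these 3 windows. Of the other genes, Cdx2 had an octamer at position -147 and AP-2 letters at position -16, Gata3 had AP-2 letters at positions -246, -231 and -221, and the first of the Elf5 windows had TEAD letters at position -173. Windows were at hand for 7 of the 10 genes, and Tfap2c, Hand1 and Tead4 were not scanned. A match is a run of letters only, and binding was not measured.

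Array values are intensities on a linear scale. Medians of the 6 arrays were 67.2 to 71.3 and lower quartiles 23.8 to 25.1, and all arrays of a line lay closer to each other (root mean square log2 difference 0.135 to 0.164) than to any array of another line (0.219 to 0.298). None of the 10 genes lay below the lower quartile on any array. Cdx2, Elf5 and Gata3 lay below the array median on 6 of 6 arrays, and Hand1 lay below it on 1. Because probe sets differ in brightness, the levels of different genes are not set against each other here. Each of the 12 markers of naive ES cells lay above the array median on every array. Of 15 measured genes of differentiated trophoblast, 9 lay below the median on all 6 arrays, 7 of them below the lower quartile, and the other 6 lay above the median on all 6 arrays.

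Between each ♂M line and ZM-1, Tfap2c was higher and Krt18 lower in the ♂M line, and no other gene of the 10 passed the test. Differences were tested with limma on log2 of the intensity plus 1 over all genes, and a gene was called at a Benjamini-Hochberg adjusted p below 0.05. In ♂M-1 against ZM-1, 1 of the 10 genes was called higher and 1 lower, where 1.9% of all genes were called higher and 2.53% lower (4.42% in all). Higher calls made up 42.9% of these calls over all genes, and 56.5% when each array was centred on its median. In ♂M-3 against ZM-1 the counts were again 1 higher and 1 lower, where 8.66% of all genes were called higher and 7.2% lower (15.9% in all). Both comparisons use the same ZM-1 arrays, so they are not independent. Between ♂M-1 and ♂M-3 limma called 0 of the 10 genes, where it called 3.22% of all genes higher and 3.32% lower (6.54% in all), and 1 of the 10 had an unadjusted p below 0.05. The median difference of the 10 genes was 0.02 on the log2 scale for ♂M-1 against ZM-1, 0.01 for ♂M-3 against ZM-1 and -0.05 for ♂M-1 against ♂M-3, beside -0.01, 0.00 and -0.02 over all genes.

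**Figure D1:**
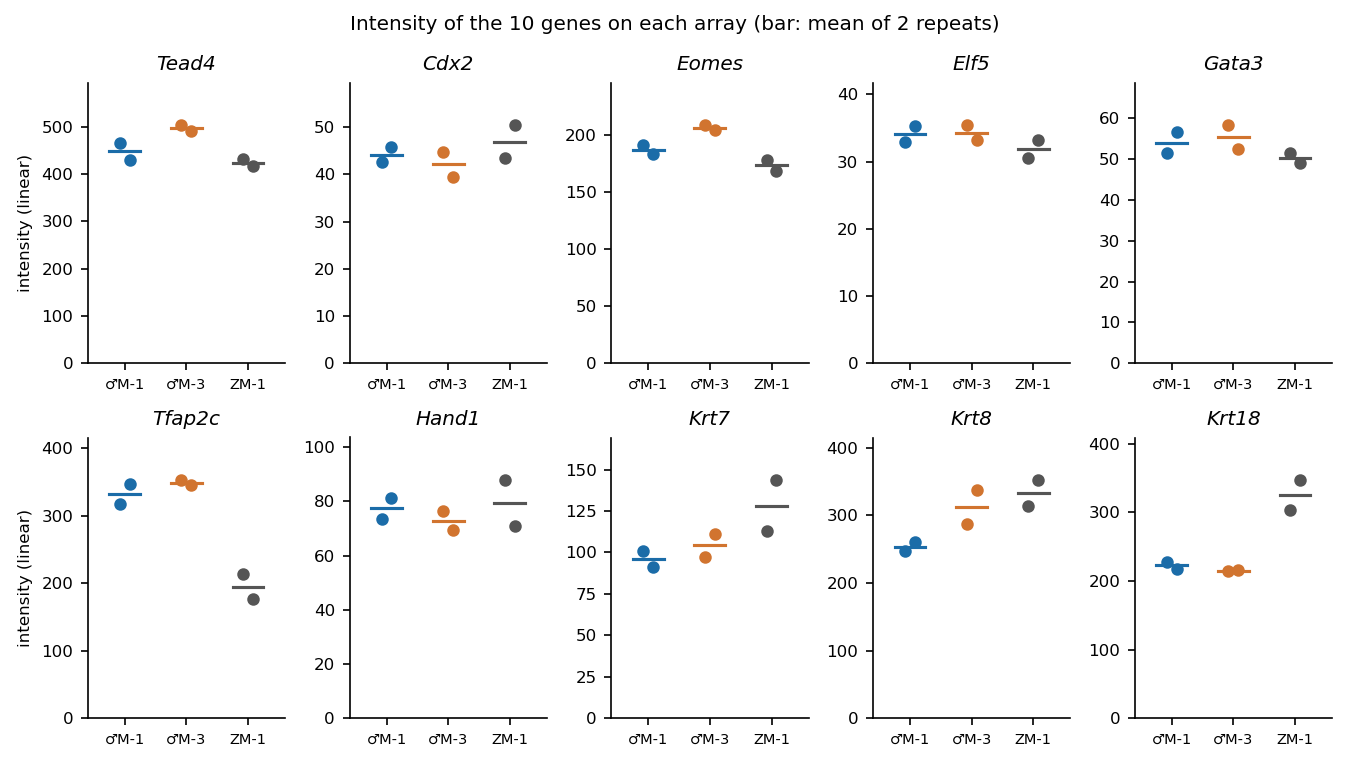
Intensity (linear scale, each panel with its own axis from 0) of each of the 10 genes on every array. Points are arrays and bars are means of the 2 repeats of ♂M-1, ♂M-3 and ZM-1. The ♂M arrays lie above both ZM-1 arrays for Tfap2c and below both for Krt18.

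Among the regulators, Tfap2c encodes the AP-2γ transcription factor, which acts in trophectoderm, in germ cell precursors and in naive ES cells. Its intensity was 318 and 347 on the ♂M-1 arrays, 353 and 346 on the ♂M-3 arrays and 214 and 177 on the ZM-1 arrays. All 4 ♂M arrays lay above both ZM-1 arrays, and the arrays of the ♂M lines overlapped with each other. The means were 333 ± 20.3 for ♂M-1, 349 ± 4.53 for ♂M-3 and 195 ± 26.0 for ZM-1 (SD, n = 2 each). Tfap2c was 1.70-fold higher in ♂M-1 than ZM-1 (log2 difference 0.77, 95% confidence interval 0.54 to 1.0, limma adjusted p = 0.00363) and 1.79-fold higher in ♂M-3 than in ZM-1 (0.84, 0.62 to 1.07, limma adjusted p = 0.00087). The lines ♂M-1 and ♂M-3 did not differ beyond their spread for this gene (-0.07, interval -0.30 to 0.15, limma adjusted p = 0.7749). Without ♂M-1 repeat 2 the ♂M-1 call was lost, at a log2 difference of 0.71, while the ♂M-3 call held in each of 17 alternatives. A fit without 1 array leaves 1 array in that line and fewer residual degrees of freedom. A call lost in such a fit, here and below, therefore does not single out that array.

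Tead4, the DNA-binding partner of YAP at the top of the trophectoderm programme, had 465 and 431 in ♂M-1, 503 and 490.2 in ♂M-3 and 433 and 416 in ZM-1. The ♂M-3 arrays were the highest and overlapped with neither of the other lines, whereas ♂M-1 and ZM-1 overlapped. The difference of ♂M-3 from ZM-1 was 0.23 on the log2 scale (interval 0.05 to 0.40) and did not pass the test (limma adjusted p = 0.08308). That of ♂M-1 from ZM-1 was 0.08 (interval -0.10 to 0.25).

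Eomes, a T-box factor of trophoblast stem cells that is also used in mesoderm and endoderm, had 191 and 183 in ♂M-1, 208 and 204 in ♂M-3 and 178 and 168 in ZM-1. The lines did not overlap, in the order ♂M-3, ♂M-1, ZM-1, but no pair passed the test. The largest difference was that of ♂M-3 from ZM-1, 0.25 on the log2 scale with an interval of 0.08 to 0.42 (limma adjusted p = 0.05423). For ♂M-1 against ZM-1 it was 0.11 (interval -0.06 to 0.28, limma adjusted p = 0.4821), and for ♂M-1 against ♂M-3 it was -0.14 (interval -0.31 to 0.03, limma adjusted p = 0.3523).

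Cdx2, the homeobox factor that commits outer cells to trophectoderm, had 42.6 and 45.8 in ♂M-1, 44.8 and 39.4 in ♂M-3 and 43.5 and 50.3 in ZM-1. The arrays of all 3 lines overlapped, in the dimmer part of the array. Its log2 difference from ZM-1 was -0.08 in ♂M-1 (interval -0.31 to 0.14) and -0.15 in ♂M-3 (interval -0.38 to 0.07). Elf5, an ETS factor whose gene is held silent by methylation in mouse ES cells, had 32.9 and 35.3 in ♂M-1, 35.4 and 33.3 in ♂M-3 and 30.5 and 33.2 in ZM-1. Both ♂M-3 arrays lay just above the ZM-1 arrays, and the log2 differences from ZM-1 were 0.10 in ♂M-1 (interval -0.09 to 0.28) and 0.11 in ♂M-3 (interval -0.08 to 0.29).

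Gata3, a zinc finger factor that acts in parallel to CDX2 downstream of TEAD4, had 51.3 and 56.4 in ♂M-1, 58.1 and 52.3 in ♂M-3 and 51.4 and 49.0 in ZM-1. The ♂M-3 arrays lay above ZM-1, while a ♂M-1 array fell between those of ZM-1. The differences from ZM-1 were 0.10 in ♂M-1 (interval -0.10 to 0.30) and 0.13 in ♂M-3 (interval -0.06 to 0.33). Hand1, the helix-loop-helix factor of giant cells and extraembryonic mesoderm, had 73.5 and 81.3 in ♂M-1, 76.4 and 69.3 in ♂M-3 and 87.7 and 70.8 in ZM-1, with full overlap. The differences from ZM-1 were -0.03 in ♂M-1 (interval -0.28 to 0.23) and -0.11 in ♂M-3 (interval -0.37 to 0.14).

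**Figure D2:**
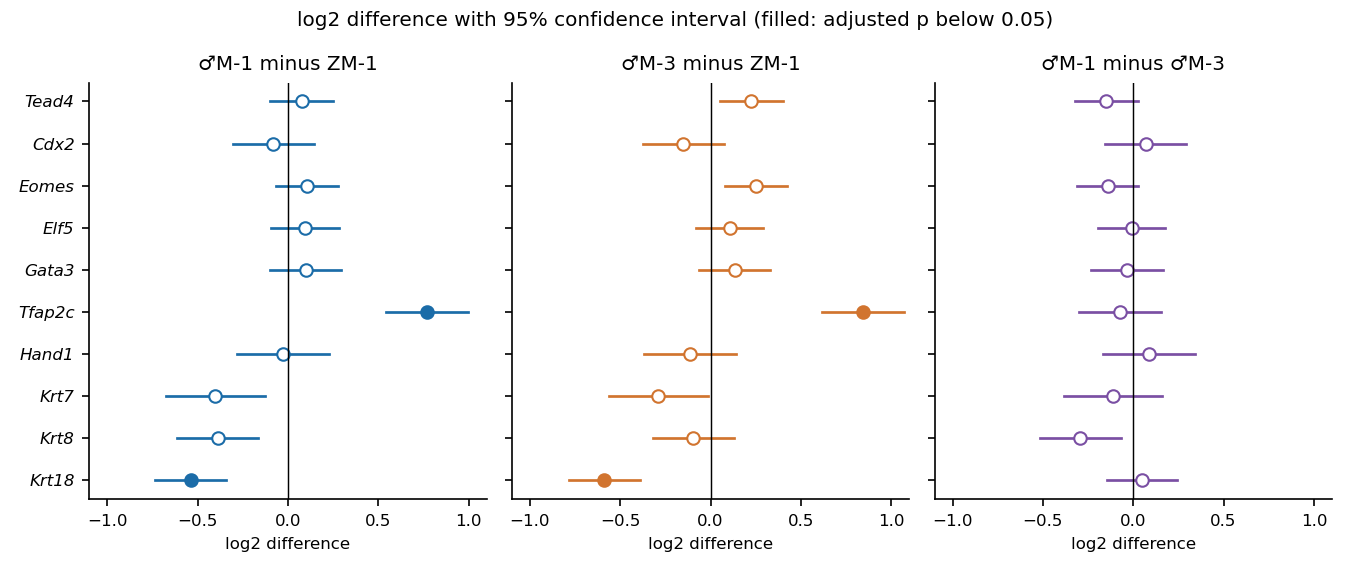
Difference between lines on the log2 scale (x axis) for each of the 10 genes, with its 95% confidence interval. Each panel is a pair of lines, and filled points had an adjusted p below 0.05. Filled points are Tfap2c to the right of 0 and Krt18 to the left of 0 in the panels with ZM-1, and the ♂M-1 against ♂M-3 panel has none.

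Of the keratins, Krt18 is the type I chain of simple epithelia. It had 227 and 218 in ♂M-1, 214 and 216 in ♂M-3 and 303 and 346 in ZM-1. All 4 ♂M arrays lay below both ZM-1 arrays. The means were 223 ± 6.77 for ♂M-1, 215 ± 1.58 for ♂M-3 and 325 ± 31.0 for ZM-1 (SD, n = 2 each), so the repeats of ZM-1 were spread the most. Krt18 was 1.45-fold lower in ♂M-1 than ZM-1 (log2 difference -0.54, interval -0.73 to -0.34, limma adjusted p = 0.01008) and 1.5-fold lower in ♂M-3 than in ZM-1 (-0.59, interval -0.78 to -0.39, limma adjusted p = 0.002504). The ♂M lines did not overlap with each other but their difference was small (0.05, interval -0.15 to 0.24, limma adjusted p = 0.8287). The ♂M-1 call was lost without ♂M-1 repeat 1 (limma adjusted p = 0.05595) and without ♂M-1 repeat 2 (0.09666), and the ♂M-3 call held in each of 17 alternatives.

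Krt8, the type II partner of KRT18, had 247 and 261 in ♂M-1, 287 and 338 in ♂M-3 and 315 and 352 in ZM-1. The ♂M-1 arrays were the lowest and overlapped with neither other line, while ♂M-3 and ZM-1 overlapped. The log2 difference of ♂M-1 from ZM-1 was -0.39 (interval -0.61 to -0.16) and did not pass the test over all genes (limma adjusted p = 0.06528). The difference of ♂M-3 from ZM-1 was -0.09 (interval -0.32 to 0.13), and that of ♂M-1 from ♂M-3 was -0.29 (interval -0.52 to -0.07, limma adjusted p = 0.1353). RefSeq lists a pseudogene of Krt8, and whether the probe set also reads it was not tested.

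Krt7, another type II keratin of trophoblast and of glandular epithelia, had 101 and 91.4 in ♂M-1, 97.5 and 111 in ♂M-3 and 113 and 143 in ZM-1. The ♂M arrays all lay below ZM-1, and the ZM-1 repeats stood far apart. The log2 difference from ZM-1 was -0.40 in ♂M-1 (interval -0.67 to -0.13, limma adjusted p = 0.1048) and -0.29 in ♂M-3 (interval -0.56 to -0.02, limma adjusted p = 0.1432). In ♂M-1 it passed the test when only genes above the 50th percentile were tested (limma adjusted p = 0.04157) and without ZM-1 repeat 1 (0.03232), and in ♂M-3 without ZM-1 repeat 1 (0.03179).

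Within each array, Krt18 was set against Krt8, and the log2 ratio was expressed relative to its mean in ZM-1. The ratio was -0.08 and -0.22 on the ♂M-1 arrays, -0.38 and -0.60 on the ♂M-3 arrays and -0.02 and 0.02 on the ZM-1 arrays, so the ♂M arrays all lay below ZM-1 and ♂M-3 the furthest. The mean difference from ZM-1 was -0.15 in ♂M-1 and -0.49 in ♂M-3, with SDs of 0.10 for ♂M-1, 0.16 for ♂M-3 and 0.02 for ZM-1 (n = 2 each). An exact two-sided permutation test gave p = 0.333 for each, which is the smallest that 2 arrays against 2 can give.

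Counting only whether arrays overlapped, 5 of the 10 genes separated ♂M-1 from ZM-1 completely (2 higher and 3 lower), beside 48.9% of all genes (23.0% higher and 25.9% lower). The count was 7 of 10 for ♂M-3 against ZM-1 (5 higher and 2 lower), beside 57.5% (30.1% and 27.4%), and 4 of 10 for ♂M-1 against ♂M-3 (1 higher and 3 lower), beside 50.5% (21.6% and 28.9%). With 2 arrays a line, complete separation was thus common across the array. The 8 uncalled genes differed from ZM-1 by -0.40 to 0.11 on the log2 scale in ♂M-1 and by -0.29 to 0.25 in ♂M-3.

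The keratins lie in a cluster on chromosome 15, with Krt8 and Krt18 side by side, and Tfap2c lies on chromosome 2. Around Krt18, the nearest measured genes in chromosomal order were the keratins Krt79, Krt78 and Krt8 on one side and Eif4b, Tns2 and Spryd3 on the other. Only Spryd3 was called among these 6. It averaged 159 ± 3.05 for ♂M-1, 150.5 ± 6.53 for ♂M-3 and 123 ± 4.16 for ZM-1 (SD, n = 2 each), the opposite direction to Krt18, with log2 differences from ZM-1 of 0.37 in ♂M-1 (limma adjusted p = 0.03255) and 0.29 in ♂M-3 (limma adjusted p = 0.0348). The calls of Spryd3 were lost whichever array was left out (0.0571 to 0.1715 in ♂M-1 and 0.05418 to 0.2008 in ♂M-3). Eif4b, a translation initiation factor next to Krt18, differed from ZM-1 by -0.05 in ♂M-1 (interval -0.22 to 0.11) and -0.06 in ♂M-3 (interval -0.23 to 0.11). None of the 6 measured neighbours of Tfap2c (Rtf2, Gcnt7, Fam209, Bmp7, Spo11 and Rae1) was called. The largest of their differences from ZM-1 was that of Fam209 in ♂M-1, 0.31 with an interval of 0.10 to 0.53 (limma adjusted p = 0.1094).

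**Figure D3:**
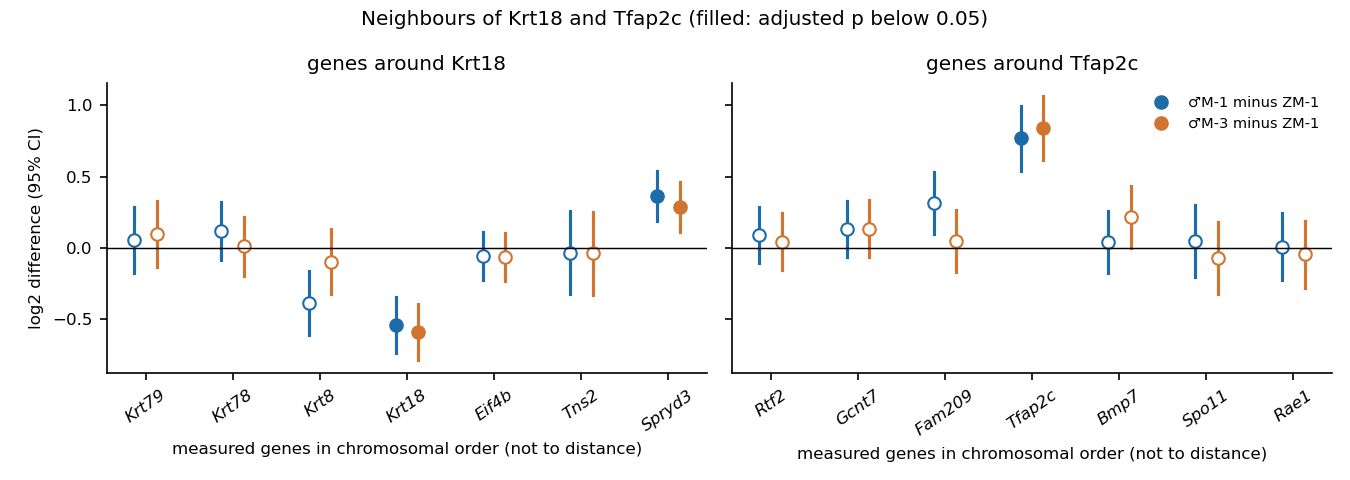
Difference from ZM-1 on the log2 scale (y axis, 95% confidence interval) for the 3 nearest measured genes on each side of Krt18 and of Tfap2c, in chromosomal order and not to distance. Filled points had an adjusted p below 0.05. Beside Krt18 and Tfap2c themselves, Spryd3 is the only filled neighbour.

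Among other genes of trophoblast stem cells and trophectoderm, the water channel gene Aqp3 was higher in each ♂M line than in ZM-1, and Gata2 and Gjb5 were higher in ♂M-3. Of 19 measured, 1 was called higher and 0 lower in ♂M-1 against ZM-1, 3 higher and 2 lower in ♂M-3 against ZM-1, and 0 higher and 1 lower in ♂M-1 against ♂M-3. Over all genes, 4.42%, 15.9% and 6.54% were called in these pairs. Gata2, a GATA factor of trophoblast, had 90.5 and 78.2 in ♂M-1, 139 and 150.5 in ♂M-3 and 66.7 and 57.2 in ZM-1, and the 3 lines did not overlap. It was 2.32-fold higher in ♂M-3 than in ZM-1 (limma adjusted p = 0.0001438) and 1.71-fold lower in ♂M-1 than in ♂M-3 (limma adjusted p = 0.003186). Aqp3 averaged 232 ± 30.5 for ♂M-1, 271 ± 12.8 for ♂M-3 and 127 ± 15.4 for ZM-1 (SD, n = 2 each). It was 1.82-fold higher in ♂M-1 (limma adjusted p = 0.003749) and 2.13-fold higher in ♂M-3 (limma adjusted p = 0.0004098) than in ZM-1. Gjb5, a placental connexin, averaged 233 ± 40.6 for ♂M-1, 295 ± 20.2 for ♂M-3 and 177 ± 7.60 for ZM-1 (SD, n = 2 each). It was 1.66-fold higher in ♂M-3 than in ZM-1 (limma adjusted p = 0.00383), and ♂M-1 was not called against either other line (0.1074 against ZM-1 and 0.1343 against ♂M-3). Bmp4 and Bmp8b, ligands that act on or from extraembryonic ectoderm, were lower in ♂M-3 than in ZM-1 by 1.38-fold and 1.28-fold (limma adjusted p = 0.008749 and 0.03454), and the Bmp4 call was lost without ♂M-3 repeat 1 (0.06196). The Bmp8b call was lost without any 1 array other than ♂M-3 repeat 2 (0.05308 to 0.2147).

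Among 18 measured paralogs of the regulators, 0 were called in ♂M-1 against ZM-1 by limma, 2 having an unadjusted p below 0.05, and 3 were called higher and 1 lower in ♂M-3 against ZM-1. Against ♂M-3, 0 were higher and 3 lower in ♂M-1. The shares called over all genes were 4.42%, 15.9% and 6.54% in these pairs. Besides Gata2, which is in this list too, Elf3, the epithelial relative of Elf5, had 847 and 661 in ♂M-1, 1149 and 1224 in ♂M-3 and 586 and 516 in ZM-1. The ♂M-3 arrays stood above all others, and Elf3 was 2.15-fold higher in ♂M-3 than in ZM-1 (limma adjusted p = 0.0005174). Tead2 was 1.37-fold higher in ♂M-3 than in ZM-1 (limma adjusted p = 0.01048, or 0.07569 without ♂M-3 repeat 2). The T-box gene Tbx21 was 1.29-fold lower (limma adjusted p = 0.01483, or 0.06836 without ♂M-3 repeat 1, 0.09726 without ♂M-3 repeat 2 and 0.05476 without ZM-1 repeat 1).

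Of 19 measured Hippo pathway genes and YAP-TEAD targets, limma called 0 in ♂M-1 against ZM-1, with 5 at an unadjusted p below 0.05, and 3 higher and 3 lower in ♂M-3 against ZM-1. Between ♂M-1 and ♂M-3, 4 were higher and 2 lower in ♂M-1. These counts stand beside 4.42%, 15.9% and 6.54% of all genes called in the same pairs. The genes called higher in ♂M-3 than in ZM-1 were Tead2, Nf2 and Wwc1 (log2 differences 0.45, 0.31 and 0.30). Those called lower in ♂M-1 than in ♂M-3 were Wwc1 and Tead2 (-0.42 and -0.35). How these calls fared without 1 array is given here only for Tead2 against ZM-1. Ccn1 and Ccn2, the classical YAP-TEAD targets, were lowest in ♂M-3. Ccn1 averaged 1106 ± 25.6 for ♂M-1, 588 ± 21.3 for ♂M-3 and 895 ± 27.9 for ZM-1, and Ccn2 averaged 2443 ± 79.9 for ♂M-1, 1298 ± 79.0 for ♂M-3 and 2088 ± 110 for ZM-1 (SD, n = 2 each). They were 1.52-fold and 1.61-fold lower in ♂M-3 than in ZM-1 (limma adjusted p = 0.001157 and 0.0009256), and 1.88-fold higher in ♂M-1 than in ♂M-3 for each. Vgll4, a cofactor that competes with YAP for TEAD factors, was 1.38-fold lower in ♂M-3 than in ZM-1 (limma adjusted p = 0.007278, or 0.06437 without ♂M-3 repeat 1). Lats2, a kinase that inactivates YAP, and Amot, a scaffold that holds YAP at junctions, were 1.45-fold and 1.35-fold higher in ♂M-1 than in ♂M-3 (limma adjusted p = 0.04528 and 0.02712). The Lats2 call was lost without ♂M-1 repeat 2 (0.1978), ♂M-3 repeat 1 (0.1705) or ♂M-3 repeat 2 (0.194), and the Amot call without any 1 array of these lines (0.06228 to 0.1931). The coactivator gene Yap1, the partner of TEAD4, differed from ZM-1 by -0.04 in ♂M-1 and -0.07 in ♂M-3 on the log2 scale (limma adjusted p = 0.8447 and 0.6077).

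**Figure D4:**
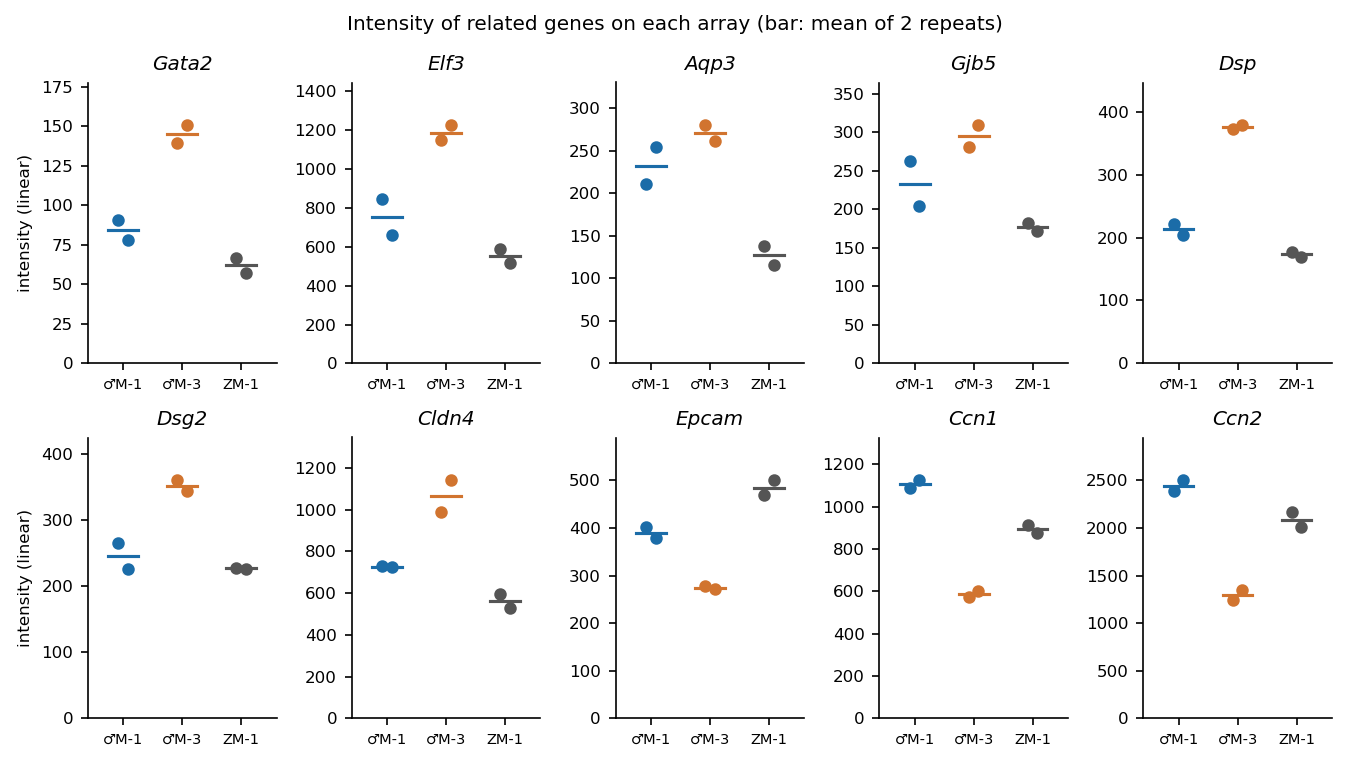
Intensity (linear scale, each panel with its own axis from 0) on every array of 10 related genes that the text describes, chosen after their values were seen. Points are arrays and bars are means of the 2 repeats of each line. The ♂M-3 arrays are the highest for Gata2, Elf3, Aqp3, Gjb5, Dsp, Dsg2 and Cldn4 and the lowest for Epcam, Ccn1 and Ccn2.

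Of 13 measured keratin partners and desmosome genes, limma called 0 in ♂M-1 against ZM-1, with 4 at an unadjusted p below 0.05, and 2 higher and 1 lower in ♂M-3 against ZM-1. In ♂M-1 against ♂M-3, 0 were higher and 2 lower. Calls over all genes made up 4.42%, 15.9% and 6.54% in these pairs. Dsp, which encodes desmoplakin, the link between keratin filaments and desmosomes, had 221 and 205 in ♂M-1, 373 and 378 in ♂M-3 and 178 and 169 in ZM-1. The 3 lines did not overlap, and Dsp was 2.16-fold higher in ♂M-3 than in ZM-1 (limma adjusted p = 5.06e-05) and 1.76-fold lower in ♂M-1 than in ♂M-3 (limma adjusted p = 0.0006275). Dsg2, a desmosomal cadherin, was 1.55-fold higher in ♂M-3 than in ZM-1 (limma adjusted p = 0.002206). Ppl, the cytolinker periplakin, was 1.37-fold lower in ♂M-3 than in ZM-1 (limma adjusted p = 0.007408, or 0.06545 without ♂M-3 repeat 2).

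Of 18 measured epithelial junction and polarity genes, 4 were called higher and 0 lower in ♂M-1 against ZM-1, and 5 higher and 4 lower in ♂M-3 against ZM-1. In ♂M-1 against ♂M-3, 3 were higher and 2 lower. The shares of all genes called in these pairs were 4.42%, 15.9% and 6.54%. Cldn4, a tight junction claudin, was 1.89-fold higher in ♂M-3 than in ZM-1 (1064 ± 107 against 563 ± 48.4, SD, n = 2 each, limma adjusted p = 0.0004098). Epcam, an adhesion molecule of epithelia and ES cells, was 1.77-fold lower in ♂M-3 than in ZM-1 (274 ± 4.46 against 485 ± 21.4, limma adjusted p = 0.0002351). Esrp1, an epithelial splicing regulator, was 1.58-fold higher in ♂M-1 than ZM-1 (376 ± 33.5 against 238 ± 9.01, limma adjusted p = 0.004455, or 0.05326 without ♂M-1 repeat 2). The claudin genes Cldn7 and Cldn6 and the tight junction gene Tjp3 were also higher in ♂M-1 than ZM-1, by 1.47-fold, 1.35-fold and 1.38-fold (limma adjusted p = 0.02359, 0.01498 and 0.01703). All 3 calls were lost without ♂M-1 repeat 1 and without ZM-1 repeat 2. Those of Cldn6 and Tjp3 were also lost without ♂M-1 repeat 2. Cgn, the tight junction protein cingulin, was 1.48-fold lower in ♂M-3 than in ZM-1 (limma adjusted p = 0.003822). Atp1b1, a subunit of the sodium pump, was 1.32-fold higher in ♂M-3 than in ZM-1 (limma adjusted p = 0.02215, or 0.09547 without ♂M-3 repeat 1, 0.1098 without ♂M-3 repeat 2 and 0.079 without ZM-1 repeat 2). In ♂M-3 against ZM-1, Tjp3 was called higher too (log2 difference 0.40, limma adjusted p = 0.01309) and Cldn6 lower (-0.29, 0.03022). Between the ♂M lines, Esrp1 and Cldn6 were 1.77-fold and 1.64-fold higher in ♂M-1 (limma adjusted p = 0.00108 and 0.0008917). Atp1b1 and Cldn4 were 1.61-fold and 1.46-fold lower there (limma adjusted p = 0.004059 and 0.01138). Fits without 1 array are not given here for Tjp3 and Cldn6 in ♂M-3, or for Esrp1 and Cldn4 between the ♂M lines. Cdh1, the E-cadherin gene, differed from ZM-1 by 0.10 in ♂M-1 and 0.17 in ♂M-3 on the log2 scale (limma adjusted p = 0.4945 and 0.1549).

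Of 49 other measured keratin genes, 36 lay below the array median on all 6 arrays. In ♂M-1 against ZM-1, 0 were called higher and 3 lower, in ♂M-3 against ZM-1 2 higher and 2 lower, and in ♂M-1 against ♂M-3 limma called 0, with 4 at an unadjusted p below 0.05. Over all genes these pairs had 4.42%, 15.9% and 6.54% called. Krt14, a basal epidermal keratin, had 60.4 and 57.1 in ♂M-1, 59.0 and 58.5 in ♂M-3 and 106 and 74.9 in ZM-1. Both ZM-1 arrays were above the rest but far from each other. Krt14 was 1.51-fold lower in each ♂M line (limma adjusted p = 0.04708 in ♂M-1 and 0.02043 in ♂M-3), and neither call was stable to leaving out 1 array. The ♂M-1 call was lost without ♂M-1 repeat 1, ♂M-1 repeat 2 or ZM-1 repeat 1. It was also lost without either ♂M-3 repeat, although those arrays do not enter that difference. The ♂M-3 call was lost without ♂M-3 repeat 1 or repeat 2. Krt6b had 13.5 and 14.1 in ♂M-1, 13.9 and 13.8 in ♂M-3 and 29.5 and 19.8 in ZM-1, below the lower quartile on all arrays but ZM-1 repeat 1, and its calls (limma adjusted p = 0.02332 in ♂M-1 and 0.009835 in ♂M-3) are given with no fold. Krt23 had 22.7 and 26.3 in ♂M-1, 29.6 and 25.2 in ♂M-3 and 33.2 and 35.6 in ZM-1, with 1 array below the lower quartile, and differed by -0.48 on the log2 scale in ♂M-1 from ZM-1 (limma adjusted p = 0.03691). The Krt6b calls were lost without either repeat of the ♂M line compared (limma adjusted p of 0.1415 and 0.1387 in ♂M-1, 0.05106 and 0.05623 in ♂M-3), and the Krt23 call without any 1 array of ♂M-1 or ZM-1 (0.06412 to 0.1986). Krt17 and Krt42 were called higher in ♂M-3 than in ZM-1, by 1.35-fold and 1.37-fold (limma adjusted p = 0.01639 and 0.0107), and both calls were lost without ♂M-3 repeat 1 (0.05091 and 0.05716), without ♂M-3 repeat 2 (0.1143 and 0.06794) and without ZM-1 repeat 2 (0.07882 and 0.05258). Krt19, another simple-epithelial type I keratin and a partner of KRT8, differed from ZM-1 by -0.33 in ♂M-1 and -0.20 in ♂M-3 (limma adjusted p = 0.08231 and 0.1701). The median log2 difference from ZM-1 of the related lists ran from -0.09 (differentiated trophoblast) to 0.12 (junction and polarity) in ♂M-1 and from -0.07 (other keratins) to 0.19 (junction and polarity) in ♂M-3, beside -0.01 and 0.00 over all genes.

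**Figure D5:**
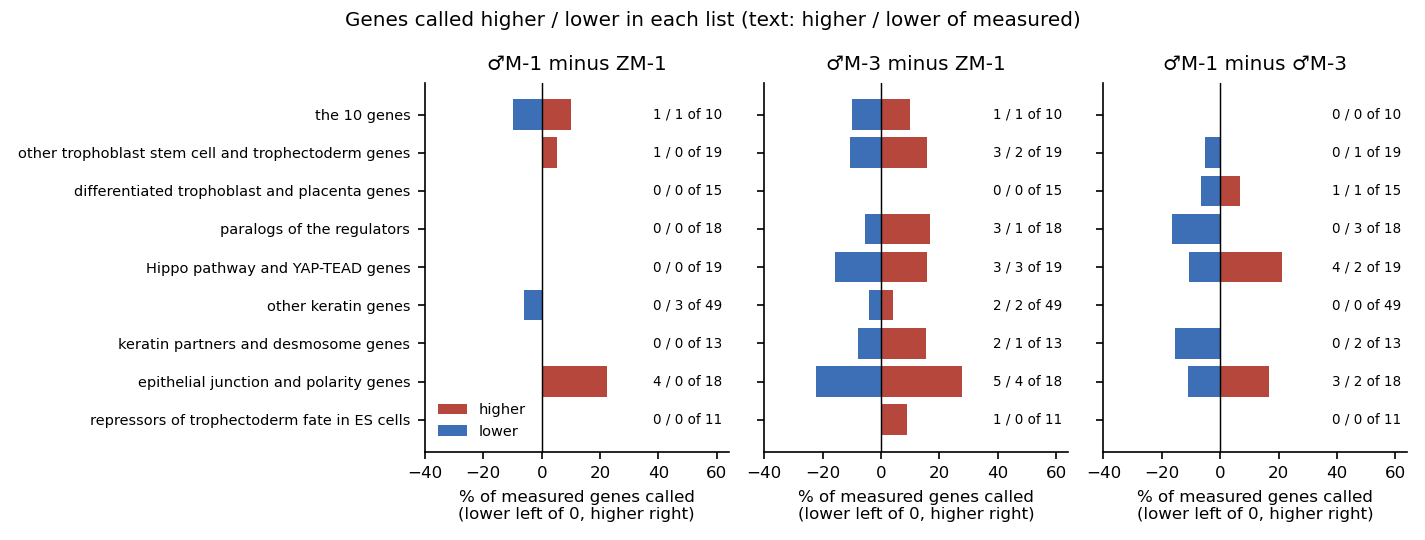
Share of measured genes called higher (right of 0) or lower (left of 0), in percent, for the 10 genes and the related lists in each pair of lines. Counts of higher and lower calls are printed beside the bars. In the ♂M-3 against ZM-1 panel the junction list has 5 higher and 4 lower calls of 18 and the differentiated trophoblast list has 0 of 15. Over all genes, 4.42% were called in ♂M-1 against ZM-1, 15.9% in ♂M-3 against ZM-1 and 6.54% in ♂M-1 against ♂M-3.

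Of 11 measured repressors of trophectoderm fate in ES cells, such as Pou5f1 and Setdb1, limma called 0 in ♂M-1 against ZM-1, with 1 at an unadjusted p below 0.05, and 1 higher in ♂M-3 against ZM-1. This was Nanog, 1.22-fold higher (limma adjusted p = 0.03843), and the call was lost when any 1 repeat of ♂M-3 or ZM-1 was left out (0.08058 to 0.1608). Of the 15 measured genes of differentiated trophoblast and placenta, limma called 0 in ♂M-1 against ZM-1 (4 at an unadjusted p below 0.05) and 0 in ♂M-3 against ZM-1 (2 at an unadjusted p below 0.05). Between ♂M-1 and ♂M-3 it called 0 of the repressors (1 at an unadjusted p below 0.05), and 1 of the trophoblast genes higher (Flt1) and 1 lower (Ascl2) in ♂M-1. The shares over all genes were 4.42% in ♂M-1 against ZM-1, 15.9% in ♂M-3 against ZM-1 and 6.54% in ♂M-1 against ♂M-3. The Flt1 call was lost without any 1 array of these lines (0.06352 to 0.167), and the Ascl2 call without ♂M-1 repeat 1 (0.167), ♂M-1 repeat 2 (0.2494) or ♂M-3 repeat 2 (0.2833).

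Markers of other cell types were counted in the same way, where 4.42% of all genes were called in ♂M-1 against ZM-1, 15.9% in ♂M-3 against ZM-1 and 6.54% in ♂M-1 against ♂M-3. Of 13 measured fibroblast markers, 1 was higher and 3 lower in ♂M-1 than ZM-1, with 9 not called, and 0 were higher and 10 lower in ♂M-3 than ZM-1. Between ♂M-1 and ♂M-3, 10 were higher and 0 lower in ♂M-1. Their median log2 difference from ZM-1 was 0.01 in ♂M-1 and -0.51 in ♂M-3. The summed intensity of the 13 was 7761.5 to 7988.7 for ♂M-1, 5345.2 to 5367.7 for ♂M-3 and 7117.6 to 7292.3 for ZM-1. The place of ♂M-1 above ZM-1 rested on the brightest probe set, that of Acta2. Without it, a setting chosen after seeing the data, the sums were 3855.9 to 4155.5 for ♂M-1, 2564.2 to 2640.3 for ♂M-3 and 4322.5 to 4472.8 for ZM-1. There ♂M-1 lay below ZM-1. Dcn, at a mean of 214 for ♂M-1 and 571 for ZM-1, weighs heavily in that order, and no sum without Dcn was taken.

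Single fibroblast markers differed in direction between ♂M-1 and ZM-1. Dcn, the matrix proteoglycan decorin, had 237 and 191 in ♂M-1, 96.5 and 112 in ♂M-3 and 596 and 546 in ZM-1, which orders the lines without overlap. It was 2.68-fold lower in ♂M-1 than ZM-1 (limma adjusted p = 0.0003269) and 5.44-fold lower in ♂M-3 than ZM-1 (limma adjusted p = 6.478e-06). These were the largest differences among the called fibroblast markers in both pairs. Acta2, smooth muscle actin, was 1.38-fold higher in ♂M-1 than ZM-1 (limma adjusted p = 0.0206, or 0.1425 without ♂M-1 repeat 2, 0.05704 without ZM-1 repeat 1 and 0.06563 without ZM-1 repeat 2). The protease gene Mmp2 and the mesenchymal factor Twist2 were 1.37-fold and 1.32-fold lower in ♂M-1 than ZM-1 (limma adjusted p = 0.01605 and 0.0219), and both calls were lost without ♂M-1 repeat 2 (0.1251 and 0.1489) and without ZM-1 repeat 1 (0.06157 and 0.07731), that of Twist2 also without ♂M-1 repeat 1 (0.0737). The collagen genes Col1a1 and Col1a2 were not called there, at log2 differences of 0.11 and 0.14. In ♂M-3 against ZM-1, Mmp2, Twist2 and the homeobox gene Prrx1 were lower by 2.19-fold, 2.23-fold and 1.65-fold (limma adjusted p = 5.06e-05, 4.21e-05 and 0.0008809). Postn, the matrix protein periostin, was 1.65-fold higher in ♂M-1 than in ♂M-3 (limma adjusted p = 0.01479, or 0.08809 without ♂M-3 repeat 1 and 0.07949 without ♂M-3 repeat 2).

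The sum of 9 primordial germ cell markers, a lineage that also expresses Tfap2c, was 2116.8 to 2423.7 for ♂M-1, 3176.4 to 3379.5 for ♂M-3 and 2011.1 to 2183.0 for ZM-1. This sum gives bright probe sets such as that of Kit the most weight, and no sum without Kit was taken. Of these markers 2 were higher and 0 lower in ♂M-1 against ZM-1, with 7 not called, and 6 were higher and 1 lower in ♂M-3 against ZM-1. The lower one was Ddx4, by 1.42-fold (limma adjusted p = 0.009396). In ♂M-1 against ♂M-3, 0 were higher and 4 lower. Calls over all genes were 4.42%, 15.9% and 6.54% in these pairs. The median log2 difference of the 9 markers from ZM-1 was 0.13 in ♂M-1 and 0.57 in ♂M-3. No probe set of the arrays had a value below 1, so an intensity above 0 does not show that a marker is expressed. Among the fibroblast markers 1, Lum, lay below the lower quartile on all 6 arrays. In whole cultures, fewer cells of a type and less RNA per cell cannot be told apart, and the part of these cells in the Tfap2c and Krt18 differences was not tested.

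Surface ectoderm and epidermis markers, which share Krt14 with the keratins, had 1 higher and 1 lower of 9 in ♂M-1 against ZM-1, 1 higher and 2 lower in ♂M-3 against ZM-1, and 2 higher and 0 lower in ♂M-1 against ♂M-3. In the same pairs 4.42%, 15.9% and 6.54% of all genes were called. Sfn, an epithelial 14-3-3 protein, averaged 1152 ± 63.0 for ♂M-1, 575 ± 16.5 for ♂M-3 and 666 ± 9.83 for ZM-1 (SD, n = 2 each) and was 1.73-fold higher in ♂M-1 than ZM-1 (limma adjusted p = 0.0008355). Grhl3, an epidermal transcription factor, was 1.44-fold higher in ♂M-3 than in ZM-1 (limma adjusted p = 0.008578, or 0.05252 when ♂M-3 repeat 1 and 0.05215 when ♂M-3 repeat 2 was left out). Perp, a desmosomal membrane protein, was 1.38-fold lower in ♂M-3 than in ZM-1 (limma adjusted p = 0.006328, or 0.05541 without ♂M-3 repeat 1) and 1.62-fold higher in ♂M-1 than in ♂M-3 (limma adjusted p = 0.001834).

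Primitive endoderm markers had 0 called of 15 by limma in ♂M-1 against ZM-1 (2 at an unadjusted p below 0.05), 1 higher and 2 lower in ♂M-3 against ZM-1, and 2 higher and 1 lower in ♂M-1 against ♂M-3. All genes together had 4.42%, 15.9% and 6.54% called in these pairs. Lama1, a basement membrane laminin of primitive endoderm, had 241 and 199 in ♂M-1, 466 and 442 in ♂M-3 and 219.6 and 209.5 in ZM-1, and was 2.11-fold higher in ♂M-3 than in ZM-1 (limma adjusted p = 0.0001972). Pdgfra, a growth factor receptor, and Col4a1, a basement membrane collagen, were 1.37-fold and 1.27-fold lower in ♂M-3 than in ZM-1 (limma adjusted p = 0.01528 and 0.02019). The Pdgfra call was lost without ♂M-3 repeat 2 (0.116) or ZM-1 repeat 1 (0.05455), and the Col4a1 call without ♂M-3 repeat 1 (0.05723), ♂M-3 repeat 2 (0.142) or ZM-1 repeat 2 (0.08423). Dab2, an endocytic adaptor, was 1.45-fold higher in ♂M-1 than in ♂M-3 (limma adjusted p = 0.007585, or 0.07873 without ♂M-1 repeat 2 and 0.07137 without ♂M-3 repeat 1).

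Mesoderm and primitive streak markers, of a lineage that uses Eomes and Hand1, had 0 called of 14 by limma in ♂M-1 against ZM-1 (2 at an unadjusted p below 0.05), 1 higher and 2 lower in ♂M-3 against ZM-1, and 1 higher and 0 lower in ♂M-1 against ♂M-3. These stand beside 4.42%, 15.9% and 6.54% of all genes called. Tbx6, a T-box factor of paraxial mesoderm, was 1.4-fold higher in ♂M-3 than in ZM-1 (limma adjusted p = 0.02116, or 0.1371 without ♂M-3 repeat 1 and 0.08798 without ZM-1 repeat 1). Besides Bmp4, which is in this list too, the forkhead factor Foxf1 was 1.31-fold lower in ♂M-3 than in ZM-1 (limma adjusted p = 0.01974, or 0.103 without ♂M-3 repeat 1, 0.08956 without ♂M-3 repeat 2 and 0.09556 without ZM-1 repeat 2). The ligand gene Wnt3 was 1.24-fold higher in ♂M-1 than in ♂M-3 (limma adjusted p = 0.04975), which passed the test with all 6 arrays and in none of the fits that left out 1 (0.05178 to 0.2938).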

How the data were processed

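The authors deposited 1 intensity per probe set and array, on a linear scale, made with GCOS 1.4 per the submitters' processing notes. How background, summarisation and normalization were handled is not given in the sources used here. Detection calls were not used. Of 35556 probe sets, 21789 carried 1 gene symbol, 1621 several and 12146 none. The brightest single-symbol probe set per gene over the 6 arrays was kept, giving 19938 genes, 999 of them with a choice of probe sets.

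Values were taken as log2 of intensity plus 1, with no further normalization. With limma 3.58.1 (R 4.3.3), each line received its own mean in a single fit over the 6 arrays (3 residual and 6.03 prior degrees of freedom), followed by two-sided moderated tests, Benjamini-Hochberg adjustment over all genes and a threshold of 0.05. The fitting was tested on simulated data. The number of arrays limits the precision.

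The 10 genes, the lists and the motifs were chosen with earlier results of these data known. The text names all 10 genes, from each list and pair up to 4 called genes with the largest difference, and the 3 nearest measured genes on each side of a called one. Yap1, Cdh1, Krt19, Nf2, Wwc1, Bmp8b, Ddx4, Lum, Col1a1 and Col1a2 were added after their values were seen. So were the differences of Tjp3 and Cldn6 in ♂M-3 against ZM-1. Alternatives were an offset of 16, quantile normalization, median centring, genes above the 25th or 50th percentile, the mean of a gene's probe sets, all probe sets, only the lines compared, an intensity trend, a replicate block and leaving out each array. The sources used name no pairing of the repeats. Deviations of repeat 1 from the line mean correlated across genes at -0.03 (♂M-1 with ♂M-3), 0.07 (♂M-1 with ZM-1) and -0.10 (♂M-3 with ZM-1). With 1 such deviation per line, this cannot show whether repeats of the same number were handled together.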

Additional observations from a re-analysis of the deposited data

How the results depend on the processing

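Of 498 recomputed differences of the 10 genes, 465 kept their direction and their side of the threshold. The alternatives are not independent checks, so such tallies do not measure robustness. Leaving out an array of the third line gave the same result as using only the lines compared. Each of the 10 genes has exactly 1 probe set, so averaging probe sets left its difference unchanged. The calls of Tfap2c and Krt18 in ♂M-3 against ZM-1 held in each of 17 alternatives, whereas in ♂M-1 against ZM-1 Tfap2c held in 15 and Krt18 in 14. Over all probe sets these adjusted p-values were 0.05376 for Tfap2c and 0.07352 for Krt18. With genes above the 50th percentile, only 6 of the 10 genes were tested. Of the 6, 4 were called in ♂M-1 against ZM-1, beside 1293 of 9969 genes in all. With all probe sets, 0 of the 10 were called in that pair, and calls among the 10 were also lost when a ♂M-1 array was left out. In ♂M-3 against ZM-1 the count was 4 of 10 with an offset of 16 and with an intensity trend. Of all 19938 genes, 3782 and 4134 were called in these settings. With genes above the 50th percentile the count for this pair was 4 of 6, beside 3377 of 9969 genes in all. Krt8 in ♂M-1 against ZM-1 was called in 5 alternatives, with the highest of those adjusted p-values at 0.04618, Eomes in ♂M-3 against ZM-1 in 5 and Tead4 in 3. Krt7 was called in ♂M-1 with genes above the 50th percentile (adjusted p = 0.04157) and without ZM-1 repeat 1 (0.03232), and in ♂M-3 without ZM-1 repeat 1 (0.03179). Over all genes, all probe sets gave 275 calls in ♂M-1 against ZM-1, 2027 in ♂M-3 against ZM-1 and 442 in ♂M-1 against ♂M-3, and an intensity trend gave 1635 in ♂M-1 against ZM-1. Leaving out 1 array gave 235 to 633, 1301 to 2749 and 357 to 1495 calls in the same pairs. Median centring put 56.5% of the ♂M-1 against ZM-1 calls on the higher side, beside 42.9% without it. A replicate block gave 686, 2768 and 1070 calls over all genes. With it the counts among the 10 were 3, 2 and 0, Krt8 being the added call. With the repeat numbers of ♂M-3 crossed, a setting chosen after seeing the data, they were 2, 2 and 0, with 890, 3238 and 1329 calls over all genes. Some uncalled differences changed sign. Hand1 in ♂M-1 against ZM-1 was 0.020 with quantile normalization and 0.0051 with median centring. When 1 array was left out, it ranged from -0.18 to 0.13, and in ♂M-3 against ZM-1 from -0.27 to 0.039. Cdx2 in ♂M-1 against ZM-1 ranged from -0.19 to 0.021, and Krt8 in ♂M-3 against ZM-1 from -0.21 to 0.022. In ♂M-1 against ♂M-3 the ranges were -0.021 to 0.16 for Cdx2, -0.060 to 0.040 for Elf5 and -0.11 to 0.040 for Gata3. The cause of these changes was not tested.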

Other observations

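Genes of the naive ES cell and germ cell lists also differed between lines. Of the germ cell markers called in ♂M-3 against ZM-1, Ddx4 was the only one lower in ♂M-3. Zfp42, a marker of naive ES cells, had 283 and 299 in ♂M-1, 673 and 668 in ♂M-3 and 263 and 280.0 in ZM-1, and was 2.47-fold higher in ♂M-3 than in ZM-1 (limma adjusted p = 2.37e-05). Of 12 naive markers, limma called 0 in ♂M-1 against ZM-1 (2 at an unadjusted p below 0.05) and 3 higher and 0 lower in ♂M-3 against ZM-1. In ♂M-1 against ♂M-3, 0 were called higher and 2 lower. Beside these counts, 4.42%, 15.9% and 6.54% of all genes were called in the same pairs. Tfcp2l1, a transcription factor of naive ES cells, was 1.26-fold higher in ♂M-3 than in ZM-1 (limma adjusted p = 0.02258, lost without any 1 array of these lines at 0.06303 to 0.1108) and 1.47-fold lower in ♂M-1 than in ♂M-3 (limma adjusted p = 0.004557, or 0.05265 without ♂M-1 repeat 2). Kit, the receptor of stem cell factor, had 761 and 636 in ♂M-1, 1148 and 1204 in ♂M-3 and 639.9 and 632 in ZM-1, and was 1.85-fold higher in ♂M-3 than in ZM-1 (limma adjusted p = 0.0004879). Dppa3 (Stella) and Tcl1, an AKT cofactor, were 1.77-fold and 1.68-fold higher in ♂M-3 than in ZM-1 (limma adjusted p = 0.004343 and 0.001559), and Prdm14, a regulator of germ cells and naive ES cells, was 1.5-fold higher (limma adjusted p = 0.009266, or 0.06789 without ♂M-3 repeat 2). Dazl, a germ cell RNA-binding protein, was 1.69-fold lower in ♂M-1 than in ♂M-3 (limma adjusted p = 0.006738, or 0.08451 without ♂M-1 repeat 2 and 0.05827 without ♂M-3 repeat 2). The germ cell markers called in ♂M-1 against ZM-1 were Nanos3 and Prdm1, 1.46-fold and 1.35-fold higher (limma adjusted p = 0.01729 and 0.0255). Both calls were lost without ♂M-1 repeat 1 (0.1089 and 0.154) and without ♂M-1 repeat 2 (0.1107 and 0.09043), that of Nanos3 also without ZM-1 repeat 1 (0.06441) and that of Prdm1 without ZM-1 repeat 2 (0.1032).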
